A study of Mus musculus with 32 samples.

Results

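The epidermal growth factor (EGF) receptor family was followed in the kidneys of mice with cisplatin-induced acute kidney injury (AKI) through 9 genes chosen by name: 6 ligands (Egf, Tgfa, Hbegf, Btc, Areg and Ereg) and 3 receptors (Egfr, Erbb2 and Erbb3), out of 54532 genes in the count table. The ligands of this family are made as membrane-anchored precursors that are shed by proteases of the ADAM family, and they act on receptor tyrosine kinases that signal as pairs through the Ras-MAPK, PI3K-Akt and STAT routes. ErbB2 has no known ligand of its own and ErbB3 has a weak kinase, so both work mainly as partners of other receptors. In the kidney, Egf is known as a product of the thick ascending limb and distal convoluted tubule, while EGFR signalling is known for its part in tubular repair and, when sustained, in fibrosis.

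The RNA came from whole kidney of 32 wild-type C57BL/6 mice aged 6 to 8 weeks, with 4 mice in each of 8 groups. Both sexes were sampled before (Day 0) and 2, 3 and 5 days after 1 intraperitoneal injection of cisplatin at 20 mg/kg, a platinum drug that damages proximal tubule cells. Day 0 mice are the healthy controls of the study, although the labels of the Day 0 females name cisplatin and those of the Day 0 males name no treatment. Each library was 1 mouse, and the totals ran from 16502107 to 35961325 counts. Levels are given as CPM, counts scaled to the library total times a TMM normalisation factor for that library. Where different genes are compared they are given as the deposited FPKM, which also divides by gene length. The TMM factor was 0.307 to 0.332 in male Day 5 mice 2, 3 and 4 and 0.892 to 1.12 in the Day 0 males. A gene was called when the Benjamini-Hochberg adjusted p of edgeR's quasi-likelihood test was under 0.05 over all genes tested.

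Several libraries stood apart and are named here because results below rest on them. The mitochondrial share of the counts was 4.87 to 14.0% at Day 2 and Day 3 and 4.49 to 23.97% at Day 0, but 42.5, 78.9, 79.8 and 79.7% in the Day 5 males and 31.6, 77.9, 22.2 and 9.30% in the Day 5 females, so that fewer reads were left for the rest. A library with a male label, Day 5 mouse 1, had 4153 Xist counts beside 387 Y-linked counts, which goes against a male label. In the other males Xist had 0 to 260 counts, with 242 in Day 0 mouse 4 and 260 in Day 5 mouse 2. The 4 Day 0 females had 5 to 221 Y-linked counts, the most in mouse 1, and the other females had 0. Female Day 0 mouse 4 had a mitochondrial share of 19.7% and the highest Egfr, Hbegf, Btc and Erbb3 of its group. In whole tissue, fewer cells of a type and less RNA per cell cannot be told apart.

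Promoter sequence is shown for Egfr and Tgfa, on which the results turn, and for Egf as the most abundant ligand. Btc is shown because its Day 3 mice lay above the Day 0 mice in both sexes. In those comparisons the groups did not overlap for 38.3% of genes in males and 19.3% in females. The 250 bases before the start site are from RefSeq (GRCm38.p6), which held an entry for 6 of the 9 members. Lines run 5′ to 3′ on the strand of the gene, and capitals mark GC boxes (GGGCGG on either strand).
Egfr (chr11:16751953-16752202, plus strand): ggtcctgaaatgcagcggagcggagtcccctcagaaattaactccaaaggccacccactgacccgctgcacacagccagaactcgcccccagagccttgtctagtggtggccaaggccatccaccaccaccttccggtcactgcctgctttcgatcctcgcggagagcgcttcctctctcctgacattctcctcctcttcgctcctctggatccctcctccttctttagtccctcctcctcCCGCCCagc
Tgfa (chr6:86194972-86195221, plus strand): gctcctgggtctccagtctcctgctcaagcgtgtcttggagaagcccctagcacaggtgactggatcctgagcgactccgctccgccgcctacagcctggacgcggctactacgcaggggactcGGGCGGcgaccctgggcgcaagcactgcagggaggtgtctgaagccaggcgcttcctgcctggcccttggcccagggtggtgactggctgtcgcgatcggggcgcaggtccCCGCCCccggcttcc
Egf (chr3:129755323-129755572, minus strand): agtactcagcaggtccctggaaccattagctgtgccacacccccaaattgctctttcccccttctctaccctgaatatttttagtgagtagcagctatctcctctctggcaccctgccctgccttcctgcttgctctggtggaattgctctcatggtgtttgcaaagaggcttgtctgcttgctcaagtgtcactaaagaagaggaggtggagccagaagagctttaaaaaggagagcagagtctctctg
Btc (chr5:91402995-91403244, minus strand): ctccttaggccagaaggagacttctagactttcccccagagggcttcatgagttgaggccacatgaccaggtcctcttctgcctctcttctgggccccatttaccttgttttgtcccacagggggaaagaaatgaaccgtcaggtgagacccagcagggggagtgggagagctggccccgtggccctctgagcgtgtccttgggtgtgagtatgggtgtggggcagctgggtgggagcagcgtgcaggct

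The Egfr window held 1 GC box, 9 bases before the start, and the Tgfa window held 2, at 126 and 15 bases before it. A GC box was present in 32.7% of 32851 promoter windows of the same length. The windows of Egf and Btc held none of the 4 motifs searched on both strands, which were the GC box, the AP-1 motif (TGANTCA, in 6.75% of windows), the TATA box (TATAAA, in 12.4%) and the CCAAT box (CCAAT, in 33.8%). Areg had a GC box and a TATA box, and Erbb2 had a CCAAT box. None of the windows of the 6 members held the AP-1 letters. RefSeq also held a second Egf window, not shown, whose start lies 30230 bases from the gene start used here. It held none of the 4 motifs and had a GC content of 52.0%. The GC content was 69.2% for Tgfa, 66.0% for Erbb2, 60.8% for Egfr, 59.6% for Btc and 50.4% for Egf, against a median of 52.4% for all windows. These matches describe the letters only.

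Compared per length over the 32 libraries, Egf was the most abundant member, with a median of 41.8 FPKM (12.5 to 107). Erbb2 followed with 12.2 FPKM (8.04 to 26.8) and Erbb3 with 10.5 FPKM (4.05 to 18.2). Hbegf had a median of 6.19 FPKM (2.51 to 9.12) and Egfr of 4.02 FPKM (2.26 to 6.28). Of the less abundant ligands, Tgfa had a median of 1.14 FPKM (0.302 to 1.94), Btc of 1.02 FPKM (0.302 to 1.77) and Areg of 0.0760 FPKM (0 to 0.761), and Ereg had a median of 0. Neighbours in this order overlapped in range, except that every Egfr value lay above every Tgfa value. The same levels can be read as shares. Egf made up a median of 86.6% of the FPKM of the 6 ligands in Day 0 males and 91.7% in Day 0 females, and 78.6 and 80.5% at Day 3. Within the FPKM of the 3 receptors, the Egfr share in males was 12.3 to 13.9% at Day 0 and 17.4 to 21.6% at Day 3, while the median Erbb2 share was 47.8% at Day 0 and 36.7% at Day 3. In females the median Egfr share was 10.6% at Day 0 and 18.6% at Day 3, with Erbb2 at 61.5 and 42.8%. These shares are described without a test.

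**Figure D1:**
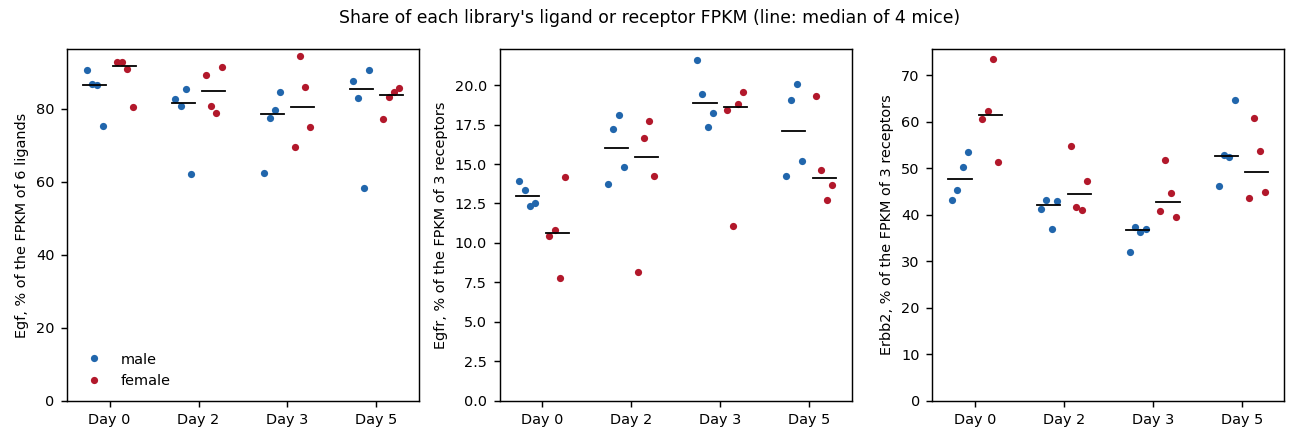
Share of Egf in the summed FPKM of 6 ligands (left) and of Egfr and Erbb2 in the summed FPKM of 3 receptors (middle and right), in percent, by day; points are single mice (blue male, red female) and lines are medians of 4 mice. In males the 4 Egfr shares at Day 3 (17.4 to 21.6%) lie above the 4 at Day 0 (12.3 to 13.9%).

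Against Day 0, the 7 members that passed the filter on low counts gave 3 calls in the 6 comparisons of an injected group with the Day 0 group of its sex, and all 3 were at Day 3. Egfr, the receptor of EGF, TGF-alpha, amphiregulin and other ligands, rose 1.68-fold in males. Erbb3, the kinase-weak partner that binds neuregulins, rose 1.33-fold in males, and Tgfa, a high-affinity EGFR ligand, rose 2.18-fold in females. In edgeR's fits of all mice, normalised by TMM, none of the 7 had an absolute log2 difference over 1.5 in any of the 15 comparisons. Unless another tool or setting is named, a call here is one by edgeR with all mice of the groups compared and no others, and alternatives called other changes too. The 3 comparisons of a sex share its Day 0 mice, so they are not independent of each other.

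**Figure D2:**
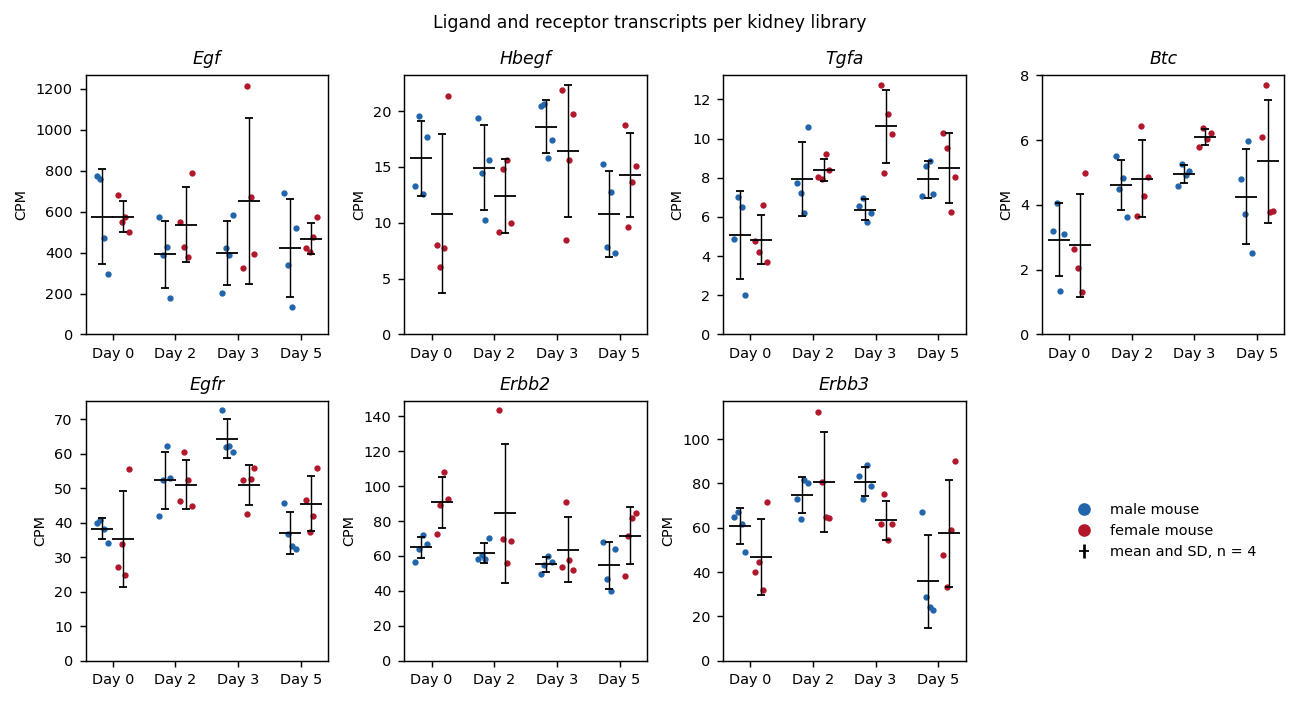
CPM (linear axis) of the 7 tested members by day; points are single mice (blue male, red female), bars the mean and SD of 4 mice. Egfr in males lies between 60.4 and 72.8 CPM at Day 3 and between 34.1 and 40.9 CPM at Day 0, and Tgfa in females between 8.26 and 12.7 CPM at Day 3 and between 3.72 and 6.61 CPM at Day 0.

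In Day 3 males, 2 of the 7 tested members were called, beside 24.5% of the 15908 genes tested, and 3 had groups that did not overlap, beside 38.3% of genes. In Day 3 females 1 of 7 was called, beside 5.54% of 17065 genes, and 2 did not overlap, beside 19.3%. For the other 4 comparisons with Day 0, edgeR called 0 members. Counts by other tools are each given with that tool's share over all genes in parentheses, for DESeq2 over all genes with a count. In Day 2 males edgeR called 3.16% of genes, DESeq2 called 1 member (Egfr; 8.8% of genes) and limma voom 2 (Egf and Egfr; 46.4%). In Day 5 males edgeR called 19.2% of genes, DESeq2 0 members (13.9%) and limma voom 3 (Egf, Hbegf and Erbb3; 54.8%). In Day 2 females edgeR called 1.93% of genes, DESeq2 1 member (Tgfa; 6.84%) and limma voom 5 (all but Egf and Erbb2; 50.0%). In Day 5 females edgeR called 0.258% of genes, DESeq2 0 members (2.36%) and limma voom 4 (Egfr, Hbegf, Tgfa and Btc; 18.9%). At an unadjusted p under 0.05, edgeR had 1 of 7 members in Day 2 males, 0 in Day 5 males, 2 in Day 2 females and 1 in Day 5 females, beside 29.0, 36.1, 25.3 and 15.7% of genes. Groups did not overlap for 1 member in Day 2 males, 1 in Day 5 males, 1 in Day 2 females and 0 in Day 5 females, beside 24.4, 27.3, 15.3 and 8.6% of genes.

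Day 3 did not separate from Day 2 in either sex: edgeR, DESeq2 and limma voom each called 0 members, with 1 unadjusted p under 0.05 in males (Egfr, log2 fold change 0.30, SE 0.119, adjusted p 0.573) and 0 in females, and edgeR called 0% of all genes there. Both comparisons had 0 members without overlap, beside 6.45% of genes in males and 2.9% in females.

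**Figure D3:**
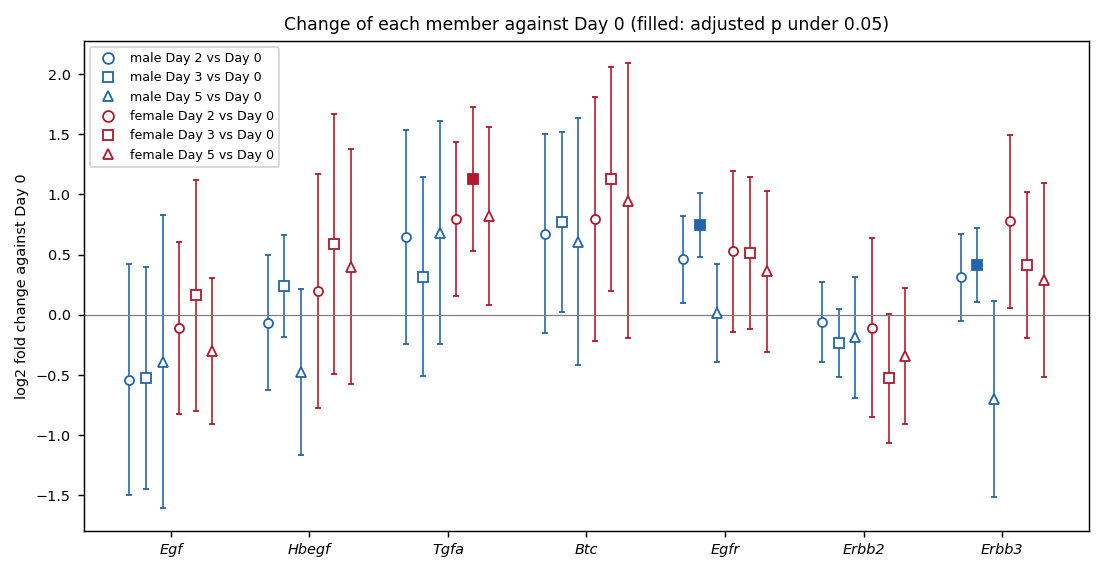
Log2 fold change of each tested member against the Day 0 mice of the same sex, with 95% intervals (n = 4 mice per group). The intervals were built from edgeR's log2 fold change and F and are not given by edgeR itself. Blue is male, red is female, and circles, squares and triangles are Day 2, Day 3 and Day 5. The filled symbols, with an adjusted p under 0.05, are Egfr (0.75) and Erbb3 (0.41) in males at Day 3 and Tgfa (1.13) in females at Day 3.

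Egf (ENSMUSG00000028017, chr3:129677565-129755316, minus strand), the founding ligand, had CPM of 773, 758, 473 and 294 in the Day 0 males, 572, 389, 426 and 179 at Day 2, 202, 424, 387 and 584 at Day 3 and 691, 341, 134 and 521 at Day 5. In females it had 681, 547, 574 and 499 CPM at Day 0, 548, 428, 380 and 789 at Day 2, 326, 1215, 672 and 391 at Day 3 and 420, 403, 474 and 573 at Day 5. The groups overlapped in every comparison, and female Day 3 mouse 2 was the highest of all 32 libraries. In males the log2 fold change was -0.54 at Day 2, -0.52 at Day 3 and -0.39 at Day 5, and in females -0.11, 0.16 and -0.30. The smallest of these 6 adjusted p was 0.326, for males at Day 3, with a 95% interval of -1.45 to 0.40. Limma voom with sample quality weights gave -0.76 (adjusted p 0.0145) in Day 2 males and -1.09 (0.0135) in Day 5 males. In females at Day 3 the sign turned when mouse 2 was left out (-0.32, adjusted p 0.485), and at Day 2 without female Day 0 mouse 1 (0.01) or female Day 2 mouse 3 (0.03). The Egf locus overlaps Gm24515 and, on the other strand, 6330410L21Rik, Gm42697 and Gm42650. How strand was used in counting is not given in the sources used here, so reads of overlapping genes cannot be told apart.

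Transcripts of the tubule segments that make Egf were looked at beside it. Umod, which encodes uromodulin of the thick ascending limb, had means of 1003 CPM in Day 0 males and 1129 CPM at Day 3 (log2 fold change 0.18, SE 0.524, adjusted p 0.819), and 817 and 1792 CPM in females (1.12, SE 0.487, 0.156). Its sign in males turned without male Day 0 mouse 3 (-0.06) or mouse 4 (-0.13), the latter being the mouse with the highest mitochondrial share of its group. Slc12a1, the sodium-potassium-chloride cotransporter of that segment, had a log2 fold change of 0.93 (SE 0.443, adjusted p 0.151) in males and 1.03 (SE 0.439, 0.150) in females at Day 3. Slc12a3, the sodium-chloride cotransporter of the distal convoluted tubule, had -0.67 (SE 0.255, 0.0822) and -0.95 (SE 0.361, 0.117). Of 10 markers of both segments, 4 fell in Day 3 males (Calb1, Cldn10, Pvalb and Trpm6; 13.1% of all genes fell) and 1 in Day 3 females (Pvalb; 4.28%), none rose, these names being given after their values were seen, and the summed level ranged from 1334 to 3264 CPM in Day 0 males and 1896 to 2932 CPM in Day 3 males. The part of these segments in the Egf level was not tested.

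Tgfa (ENSMUSG00000029999, chr6:86195223-86275719, plus strand), the precursor of TGF-alpha, had 4.77, 4.23, 6.61 and 3.72 CPM in the Day 0 females, 8.04, 7.92, 9.20 and 8.40 at Day 2, 12.7, 8.26, 11.3 and 10.2 at Day 3 and 10.3, 9.5, 6.24 and 8.02 at Day 5. All 4 females at Day 2 and all 4 at Day 3 lay above all 4 at Day 0, beside 15.3 and 19.3% of genes without overlap. The Day 5 group overlapped Day 0. The log2 fold change was 0.80 (SE 0.260, adjusted p 0.0973) at Day 2, 1.13 (SE 0.245, adjusted p 0.0478, 95% interval 0.53 to 1.73) at Day 3 and 0.82 (SE 0.303, adjusted p 0.244) at Day 5. At Day 3 the mean went from 4.83 to 10.6 CPM. This call sat just inside the threshold. The adjusted p reached 0.0713 to 0.168 without female Day 0 mouse 1, 2 or 3 or female Day 3 mouse 1, 3 or 4, and 0.05004 with the size factors of DESeq2. In those 6 fits 0 or 1 of all genes was called. The log2 fold change itself stayed within 1.02 to 1.31 over the 8 fits that left out 1 mouse.

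In males Tgfa had 4.88, 7.0, 6.49 and 2.01 CPM at Day 0, 7.72, 7.25, 6.18 and 10.6 at Day 2, 6.54, 6.98, 5.73 and 6.22 at Day 3 and 7.05, 8.61, 8.86 and 7.15 at Day 5. All 4 Day 5 males lay above all Day 0 males, a pattern shown by 27.3% of genes in that comparison, while the other days overlapped Day 0. None of the male changes was called, with log2 fold changes of 0.65 (adjusted p 0.266), 0.32 and 0.68 (adjusted p 0.223) at Day 2, Day 3 and Day 5. The Tgfa locus overlaps Gm43917 on the other strand.

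Btc (chr5:91357261-91402994, minus strand) encodes betacellulin, a ligand of EGFR and ErbB4. It had 3.20, 4.05, 1.35 and 3.10 CPM in Day 0 males and 4.59, 5.25, 4.93 and 5.05 at Day 3, and 2.63, 2.06, 1.32 and 4.99 CPM in Day 0 females and 5.80, 6.36, 6.05 and 6.21 at Day 3. In both sexes every Day 3 mouse lay above every Day 0 mouse, beside 38.3% of genes without overlap in males and 19.3% in females. The log2 fold change at Day 3 was 0.77 (SE 0.306, adjusted p 0.0945) in males and 1.13 (SE 0.380, adjusted p 0.0897) in females, so edgeR called neither. With all mice limma voom called the male change (adjusted p 0.0159), and DESeq2, limma voom and 1 fit over all 8 groups called the female change (adjusted p down to 0.00117). At Day 2 it was 0.67 (adjusted p 0.215) in males and 0.80 (adjusted p 0.250) in females, and at Day 5 0.61 and 0.95 (adjusted p 0.352 in females), with overlapping groups. At Day 3 leaving out a single Day 0 mouse also gave a call in each sex: without male Day 0 mouse 3 the log2 fold change was 0.52 (adjusted p 0.0308), and without female Day 0 mouse 4 it was 1.58 (adjusted p 0.00373).

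Hbegf (chr18:36504929-36515805, minus strand), the heparin-binding ligand of EGFR and ErbB4, had 13.3, 19.5, 12.5 and 17.6 CPM in Day 0 males, 19.4, 14.5, 10.2 and 15.6 at Day 2, 20.5, 20.6, 15.8 and 17.4 at Day 3 and 15.3, 7.87, 12.7 and 7.29 at Day 5. The female values were 8.01, 6.04, 7.74 and 21.4 CPM at Day 0, 9.18, 14.8, 15.6 and 9.99 at Day 2, 21.9, 8.43, 15.6 and 19.7 at Day 3 and 18.8, 9.62, 13.6 and 15.1 at Day 5. The groups overlapped throughout, and in females only Day 0 mouse 4 made them overlap, at more than the level of any Day 2 or Day 5 female. With all mice the log2 fold changes in females were 0.20, 0.59 (SE 0.442, adjusted p 0.376) and 0.40 at Day 2, Day 3 and Day 5, and in males -0.06, 0.24 and -0.48. Without female Day 0 mouse 4 they were 0.77 (adjusted p 0.0540), 1.17 (adjusted p 0.0222) and 0.98 (adjusted p 0.0429). The sign at Day 2 in males turned when mouse 2 of the Day 0 males (0.05) or mouse 3 of the Day 2 males (0.08) was left out.

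Areg (chr5:91139599-91148432, plus strand) and Ereg (chr5:91074622-91093646, plus strand) encode amphiregulin and epiregulin, ligands known to be induced in injured epithelium, and both failed the filter on low counts in every comparison. Areg had 0 counts in 8 of 32 libraries and more than 3 counts in 14. Its counts in males were 2, 0, 0 and 2 at Day 0, 1, 1, 2 and 18 at Day 2, 5, 0, 2 and 0 at Day 3 and 1, 6, 4 and 0 at Day 5. In females they were 2, 5, 15 and 3 at Day 0, 0, 10, 5 and 2 at Day 2, 11, 7, 6 and 12 at Day 3 and 5, 0, 6 and 0 at Day 5. No group stood clear of its Day 0 group. Ereg had 0 counts in 17 libraries and more than 3 in 6, with at most 8 counts, in male Day 2 mouse 4, which also had the 18 Areg counts. Neither ligand was tested.

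Egfr (ENSMUSG00000020122, chr11:16752203-16918158, plus strand) had 39.8, 40.9, 38.3 and 34.1 CPM in Day 0 males, 42.0, 52.3, 62.2 and 52.8 at Day 2, 72.8, 61.8, 62.4 and 60.4 at Day 3 and 45.7, 36.7, 33.3 and 32.5 at Day 5. Every Day 2 male and every Day 3 male lay above every Day 0 male, beside 24.4 and 38.3% of genes whose groups did not overlap. The Day 5 males overlapped the Day 0 males. The mean was 38.3 ± 2.97 CPM at Day 0, 52.3 ± 8.28 at Day 2, 64.4 ± 5.68 at Day 3 and 37.1 ± 6.05 at Day 5 (SD, n = 4 each). Egfr differed from Day 0 by a log2 fold change of 0.46 (SE 0.148, adjusted p 0.0881) at Day 2, 0.75 (SE 0.108, adjusted p 0.00603, 95% interval 0.48 to 1.01) at Day 3 and 0.01 (SE 0.167, adjusted p 0.964) at Day 5. The Day 3 call held in all 8 fits that left out 1 mouse, with log2 fold changes of 0.69 to 0.78 and adjusted p of 0.000802 to 0.0331. The Egfr locus overlaps Egfros on the other strand.

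The female Egfr values were 27.2, 33.8, 24.8 and 55.5 CPM at Day 0, 46.4, 60.5, 52.5 and 44.9 at Day 2, 52.4, 42.4, 52.8 and 55.8 at Day 3 and 46.7, 37.3, 42.0 and 55.9 at Day 5. Day 0 mouse 4, at 55.5 CPM, lay within the injected mice, and the other 3 lay below all of them. With all mice the log2 fold changes were 0.53 (SE 0.273, adjusted p 0.248), 0.51 (SE 0.258, adjusted p 0.207) and 0.36 at Day 2, Day 3 and Day 5. Without that mouse they were 0.84 (adjusted p 0.0142), 0.82 (adjusted p 0.00536) and 0.67 (adjusted p 0.0542).

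Erbb2 (chr11:98412470-98437716, plus strand), the ligand-less partner, had 56.8, 63.9, 71.8 and 67.0 CPM in Day 0 males and 49.6, 54.9, 60.0 and 56.4 at Day 3, and 72.7, 89.4, 108 and 92.7 CPM in Day 0 females and 53.5, 91.0, 57.9 and 51.8 at Day 3. In each sex 3 of the 4 Day 3 mice lay below all Day 0 mice and 1 lay within their range. All 6 log2 fold changes were negative, from -0.06 in Day 2 males to -0.53 (SE 0.218, adjusted p 0.141) in Day 3 females, and edgeR called none. In Day 3 females limma voom called Erbb2 lower (adjusted p 0.0226). In Day 2 females the change was -0.11, and its sign turned without female Day 0 mouse 3 (0.01) or female Day 2 mouse 3 (0.06). Female Day 2 mouse 1 had the highest value of all libraries, 144 CPM. The locus overlaps Mien1 and Gm25048 on the other strand.

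Erbb3 (chr10:128567523-128589652, minus strand) had 64.9, 67.1, 61.9 and 49.0 CPM in Day 0 males, 73.1, 64.0, 81.8 and 80.0 at Day 2, 83.3, 72.8, 88.3 and 78.7 at Day 3 and 67.3, 28.8, 24.3 and 23.0 at Day 5. All 4 Day 3 males lay above all Day 0 males, beside 38.3% of genes without overlap. At Day 3 the log2 fold change was 0.41 (SE 0.125, adjusted p 0.0439, 95% interval 0.10 to 0.72). This call was lost on leaving out mouse 1 or 2 of the Day 0 males or any of the 4 Day 3 mice (adjusted p 0.0619 to 0.128). It was kept in the other 2 fits that left out 1 mouse, and lost without the filter on low counts (0.0771), without mitochondrial genes (0.0523) and in 1 fit over all 8 groups (0.309). At Day 2 the log2 fold change was 0.31 (SE 0.147, adjusted p 0.193).

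At Day 5, 3 of the 4 male libraries, mice 2, 3 and 4, were at 23.0 to 28.8 CPM of Erbb3, below every Day 0 male, and these are the 3 with mitochondrial shares of 78.9 to 79.8%. The library labelled mouse 1, which carries Xist and a mitochondrial share of 42.5%, was at 67.3 CPM. With all 4 the log2 fold change was -0.70 (SE 0.333, adjusted p 0.161), and without mouse 1 it was -1.18 (adjusted p 0.00247). In the Day 5 females, at mitochondrial shares of 9.30, 22.2, 31.6 and 77.9%, Erbb3 was at 90.1, 59.1, 47.7 and 33.3 CPM. The part of the share in the Erbb3 level was not tested. Lrp2, the endocytic receptor megalin of the proximal tubule, had a mean of 962 CPM in Day 0 males and 260 CPM at Day 5 (log2 fold change -1.85, SE 0.785, adjusted p 0.123), and -3.38 (adjusted p 0.00105) without that library. The summed level of 10 proximal tubule markers was 11731 to 14563 CPM in Day 0 males and 1002 to 8161 CPM in Day 5 males, with 2 of 10 lower by the test, beside 10.2% of all genes (Slc22a6 and Slc34a1, also named after their values were seen).

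In females Erbb3 had 40.1, 44.4, 31.8 and 71.5 CPM at Day 0, 112, 80.5, 64.9 and 64.5 at Day 2, 61.7, 75.4, 54.5 and 61.7 at Day 3 and 47.7, 33.3, 59.1 and 90.1 at Day 5. Female Day 0 mouse 4 again lay inside the range of the injected mice. The log2 fold change was 0.78 (SE 0.294, adjusted p 0.135) at Day 2, 0.42 (SE 0.248, adjusted p 0.278) at Day 3 and 0.29 at Day 5 with all mice. Without mouse 4 it was 1.06 (adjusted p 0.0129) at Day 2, 0.69 (adjusted p 0.0120) at Day 3 and 0.57 (adjusted p 0.218) at Day 5. The sign at Day 5 turned without female Day 5 mouse 4 (-0.0038).

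Counted over the family, leaving out female Day 0 mouse 4 took the calls in Day 3 females from 1 to 5 of 7 (Egfr, Hbegf, Tgfa, Btc and Erbb3), in Day 2 females from 0 to 3 (Egfr, Btc and Erbb3) and in Day 5 females from 0 to 1 (Hbegf). The same fits called 39.1, 28.3 and 12.6% of all genes, against 5.54, 1.93 and 0.258% with that mouse, so the shift ran across the whole table. The summed level of 5 hepatocyte markers in the Day 0 females was 28.0 to 9040 CPM, with the highest value in mouse 2 and the lowest in mouse 4. Where these transcripts came from was not tested. Without mouse 2 the Tgfa call in Day 3 females was lost (log2 fold change 1.07, adjusted p 0.137), as it was in the other fits named above for Tgfa.

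**Figure D4:**
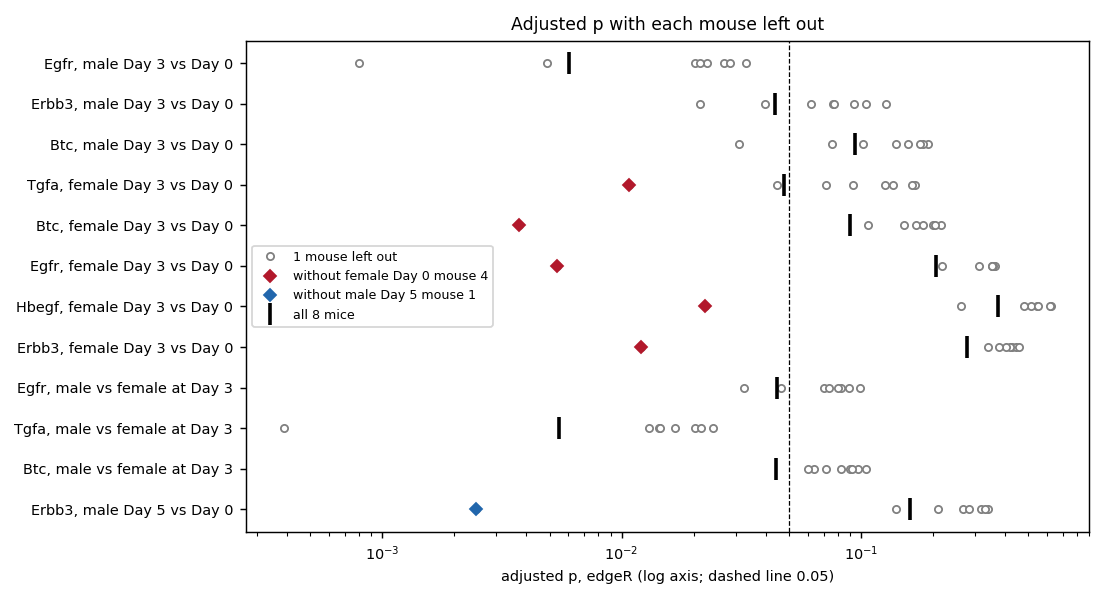
Adjusted p from edgeR (log axis) for 12 member changes, with all 8 mice (black bars) and with each mouse left out in turn (circles; diamonds mark female Day 0 mouse 4 in red and the library labelled male Day 5 mouse 1 in blue); the dashed line is 0.05. Egfr in Day 3 males stays left of the line in all 8 fits, and for 4 female changes only the red diamond lies left of it.

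Males and females were compared on each day to see whether the family differed by sex. At Day 3, 3 of the 7 tested members were called, beside 21.3% of 16673 genes: Egfr was higher in males (as were 10.6% of genes) and Tgfa and Btc were lower in males (as were 10.7%). The same 3 had groups that did not overlap, beside 25.7% of genes. Tgfa averaged 6.37 CPM in males and 10.6 CPM in females, a 1.70-fold difference (log2 -0.77, SE 0.138, adjusted p 0.00547), and the call held in all 8 fits that left out 1 mouse (adjusted p 0.000389 to 0.0242) but not in 1 fit over all 8 groups (0.211). Egfr averaged 64.4 and 50.8 CPM (log2 0.31, SE 0.0957, adjusted p 0.0445), and was called in 2 of 8 such fits (0.0325 to 0.0997), those without female Day 3 mouse 2 or 4. Btc averaged 4.95 and 6.10 CPM (log2 -0.33, SE 0.101, adjusted p 0.0443), and was called in none of the 8 (0.0599 to 0.106). Erbb3 had a log2 difference of 0.32 (SE 0.105, adjusted p 0.0535). With all mice it was called in 3 of 8 alternatives, by edgeR with no filter, DESeq2 and limma voom (adjusted p down to 0.00254), and of the 8 fits that left out 1 mouse in that without female Day 3 mouse 2 (0.42, adjusted p 0.00298). Egf, Hbegf and Erbb2 were not called (log2 -0.74, 0.15 and -0.23), and the sign of Hbegf turned without female Day 3 mouse 2 (-0.06).

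On the other days edgeR called 0 members between the sexes, beside 0.449% of genes at Day 0, 1.47% at Day 2 and 0.276% at Day 5. DESeq2 called 0 on each of these days, beside 1.31, 2.67 and 3.66% of genes. Limma voom called 3 of 7 at Day 0 (Hbegf, Erbb2 and Erbb3), 0 at Day 2 and 2 at Day 5 (Hbegf and Erbb3), beside 25.2, 19.0 and 29.7%. At Day 2 and Day 5, 0 members were free of overlap, beside 8.96 and 8.85% of genes. At an unadjusted p under 0.05 there was 1 member at Day 0 and 0 at Day 2 and Day 5, beside 8.04, 15.0 and 20.3% of genes. The 1 was Erbb2, which was lower in every Day 0 male (56.8 to 71.8 CPM) than in every Day 0 female (72.7 to 108 CPM), with a log2 difference of -0.50 (SE 0.181, adjusted p 0.454), a separation shown by 6.17% of genes. At Day 5, Erbb3 had a log2 difference of -0.62 (SE 0.380, adjusted p 0.378), and -1.06 (adjusted p 0.0241) without the library labelled male Day 5 mouse 1.

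Whether the change since Day 0 differed between the sexes was tested as an interaction, and edgeR called 0 members at Day 2, Day 3 and Day 5, beside 0, 0.0114 and 0.243% of genes, with 0 unadjusted p under 0.05, beside 4.23, 7.11 and 15.2% of genes. DESeq2 called 0 on each day, beside 0.0735, 0.225 and 2.02% of genes. Limma voom called 0, 2 (Tgfa and Btc) and 3 (Egfr, Hbegf and Erbb3) of 7, beside 11.2, 12 and 32.5%, and its Day 5 values reached -1.93 for Hbegf and -1.52 for Erbb3. The Tgfa interaction at Day 3 was -0.84 (SE 0.426, adjusted p 0.740). The Erbb3 interaction at Day 5 was -1.01 (SE 0.499, adjusted p 0.351), and -1.50 (adjusted p 0.0432) without the library labelled male Day 5 mouse 1. The rise of Egfr in males and of Tgfa in females was therefore not shown by edgeR to differ from the change in the other sex.

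Beyond the 9 members, 69 genes of the pathway were listed: 5 further ligands, the receptor Erbb4, 7 sheddases and their partners, 22 adaptors and kinases, 18 feedback inhibitors and 16 transcripts that respond to MAPK signalling. In Day 3 males 19 of 65 tested rose and 3 fell, with a median log2 fold change of 0.43 beside 0.025 over all genes, where 11.4% of genes rose and 13.1% fell. There DESeq2 called 29 of 69 in either direction (beside 17.6% of genes) and limma voom 49 of 65 (57.1%). With the replicate number as a block edgeR called 0 of 65 (0.566%). In Day 2 males 7 of 66 rose and in Day 5 males 9 of 62, beside 1.81 and 8.98% of genes, and none fell. An edgeR fit over all 8 groups had 1 and 7 lower, beside 7.66 and 17.8% of all genes lower. Fits without 1 mouse had up to 1 and 4 lower. The 1 came without male Day 0 mouse 3, beside 7.67% of genes lower. The 4 came without the library labelled male Day 5 mouse 1, beside 14.5%. DESeq2 had 1 and 2 pathway genes lower on these days and limma voom 6 and 13, where DESeq2 had 4.63 and 7.05% of all genes lower and limma voom 23.2 and 26.9%. In females 1 of 66 rose at Day 2, 3 of 66 at Day 3 and 0 of 65 at Day 5, beside 0.774, 1.26 and 0.185% of genes, with medians of 0.30, 0.37 and 0.33. For the 0 at Day 5, DESeq2 called 3 of 68 (beside 2.36% of genes) and limma voom 27 of 65 (beside 18.9%). The sex by day interaction had 0 of 67 pathway genes called at Day 2, 0 of 67 at Day 3 and 0 of 66 at Day 5 by edgeR, and 1 at Day 5 without the library labelled male Day 5 mouse 1 (beside 6.74% of genes) and in 1 fit over all 8 groups (beside 7.55%). DESeq2 called 0, 0 and 1 of 69 there, and limma voom 12, 9 and 20, beside 11.2, 12 and 32.5% of genes. Single mice decided these counts of calls. Without female Day 0 mouse 4 they were 28, 36 and 21 in females, beside 28.3, 39.1 and 12.6% of all genes, and other omissions brought each to 0, beside at most 0.298% of genes. In males they ran from 0 to 15 at Day 2 and 6 to 36 at Day 3, both highest without male Day 0 mouse 3, where 14.0 and 38.6% of all genes were called. At Day 5 they ran from 4 to 14, highest without the library labelled male Day 5 mouse 1, where 26% of genes were called.

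Among the further ligands, Nrg1, which encodes neuregulin 1 and is a ligand of ErbB3 and ErbB4, averaged 6.24 CPM in Day 0 males, 12.1 at Day 2, 16.0 at Day 3 and 5.11 at Day 5. In females it averaged 4.64, 14.6, 16.6 and 12.8 CPM. It rose in Day 3 males (log2 fold change 1.36, SE 0.233, adjusted p 0.00938), in Day 2 females (1.65, SE 0.284, adjusted p 0.0255) and in Day 3 females (1.83, SE 0.426, adjusted p 0.0480). It was not called by edgeR in Day 2 males (0.97, SE 0.231, adjusted p 0.0535), Day 5 males (-0.21, adjusted p 0.754) or Day 5 females (1.46, SE 0.294, adjusted p 0.0850). Of 8 alternatives with all mice, 3 called its rise in Day 2 males (DESeq2, limma voom and edgeR with at least 10 counts in every library, adjusted p down to 0.00178). In Day 5 females 4 did (DESeq2, limma voom, no filter and 1 fit over all 8 groups, adjusted p down to 0.000757), and in Day 5 males limma voom called it lower (-0.97, adjusted p 0.0242). The male Day 3 call held in all 8 fits that left out 1 mouse (adjusted p 0.00156 to 0.0435), while the female calls ranged up to 0.127 at Day 2 and 0.168 at Day 3. Each female call was lost without Day 0 mouse 1 or 2, at Day 2 also without Day 2 mouse 1, 2 or 3, and at Day 3 also without Day 0 mouse 3 or Day 3 mouse 1, 3 or 4. Nrg4 gave no call, nor did Nrg2 where it passed the filter, and Epgn (0 to 3 counts per library) and Nrg3 (0 to 10 counts) were too low to test. Erbb4, the receptor of neuregulins and betacellulin, averaged 7.03 CPM in Day 0 males and 10.1 at Day 3 (log2 fold change 0.52, SE 0.325, adjusted p 0.256), and 8.32 and 12.4 CPM in females (0.56, SE 0.279, adjusted p 0.201).

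Of the 7 sheddases and partners, 3 rose in Day 3 males, beside 11.4% of all genes. By edgeR none was called in the other comparisons with Day 0, and none in the sex by day interaction at Day 3. The 3 were Adam10 (log2 fold change 0.42, adjusted p 0.0185), a protease that sheds EGF and betacellulin, and Rhbdf2 (0.85, adjusted p 0.0184) and Rhbdf1 (0.43, adjusted p 0.0449), the iRhom partners of ADAM17. They were named after their values were seen, as were the other genes of this and the 2 following paragraphs apart from Plaur, which the rule for calls in both sexes picked from its own results. Leaving out 1 mouse kept the call of Rhbdf2 in 6 of 8 fits, of Adam10 in 4 and of Rhbdf1 in 2. Adam17 itself was not called. Of the 18 feedback inhibitors, 4 rose in Day 3 males, beside 11.4% of genes: Lrig3 (1.29, adjusted p 0.00868), Cbl (0.78, adjusted p 0.0460), Cblb (0.69, adjusted p 0.0180) and Socs5 (0.41, adjusted p 0.0405), and CBL proteins are known to mark EGFR for degradation. Of these only Lrig3 was called in all 8 fits that left out 1 mouse, with Cblb in 4, Cbl in 2 and Socs5 in 1. In Day 2 males 2 of 17 rose (Cblb and Lrig3, beside 1.81% of genes) and in Day 5 males 1 of 17 (Socs5, beside 8.98%), and in females edgeR called none. Female Day 0 mouse 4 had the highest summed level of all females in both lists. It had 1210 CPM of feedback inhibitors and 1187 CPM of sheddases and partners, against 501 to 567 and 278 to 375 CPM in the other Day 0 females.

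Of the 16 MAPK-responsive transcripts, 4 of 16 rose in Day 2 males, 7 of 15 in Day 3 males and 8 of 13 in Day 5 males, beside 1.81, 11.4 and 8.98% of all genes, with median log2 fold changes of 1.17, 1.11 and 1.42. Other marker lists moved in Day 5 males as well, where the mitochondrial share was 42.5 to 79.8%: 3 of 10 leukocyte markers (Csf3r, S100a8 and S100a9), 3 of 6 endothelial markers (Pecam1, Cdh5 and Tek) and 2 of 8 collecting duct markers (Aqp2 and Atp6v1g3) rose, beside 8.98% of all genes, with names given after their values were seen. The summed leukocyte level was 38.6 to 111 CPM at Day 0 and 48.1 to 357 CPM at Day 5. Their part in the MAPK-responsive counts was not tested. Fos, an immediate-early gene, averaged 4.38 CPM in Day 0 males and 36.8 at Day 3 (log2 fold change 3.05, SE 0.450, adjusted p 0.00653), and Egr1 averaged 15.9 and 120 CPM (2.91, SE 0.509, adjusted p 0.0100). Jun (1.48) and Junb (1.84) rose as well at Day 3. These 4 were called in all 8 fits that left out 1 mouse. In females 0 of 15 rose at Day 2, 2 of 15 at Day 3 (Fosl1, 3.71, adjusted p 0.0499, and Plaur) and 0 of 15 at Day 5, beside 0.774, 1.26 and 0.185% of genes, with medians of 0.31, 0.54 and 0.89. In the Day 0 females the summed level of this list was 188, 237, 231 and 639 CPM, highest in mouse 4. At Day 3 it was 226 to 520 CPM in females. Between the sexes at Day 3, 0 of 16 were higher and 2 lower in males, beside 10.6 and 10.7% of genes. The sex by day interaction had 0 of 16 called by edgeR on each day, beside 0, 0.0114 and 0.243% of genes. Plaur, the urokinase receptor, rose in Day 3 males (0.71, SE 0.184, adjusted p 0.0287), Day 5 males (1.82, SE 0.273, adjusted p 0.00633) and Day 3 females (1.47, SE 0.356, adjusted p 0.0491). Only its Day 5 call held in all 8 fits that left out 1 mouse. Its Day 3 call in males was lost without male Day 0 mouse 1 or 2 or any Day 3 male (up to 0.0864), and in females without Day 0 mouse 1, 2 or 3 or Day 3 mouse 1, 3 or 4 (up to 0.168). Fosl1 was called in 1 of 8 such fits.

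Of the 22 adaptors and kinases, 4 rose and 3 fell in Day 3 males, shares near the 11.4 and 13.1% of all genes that rose and fell. Those that rose were Plcg1 (0.95, adjusted p 0.0185), Stat3 (0.79, adjusted p 0.0286), Braf (0.74, adjusted p 0.0290) and Sos2 (0.44, adjusted p 0.0321). Those that fell were Map2k2 (-0.90, adjusted p 0.0175), Src (-0.40, adjusted p 0.0271) and Mapk3 (-0.37, adjusted p 0.0381). Each of the 7 was called in 2 to 5 of 8 fits that left out 1 mouse. In Day 2 males Plcg1 rose, and in females and in Day 5 males edgeR called none.

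**Figure D5:**
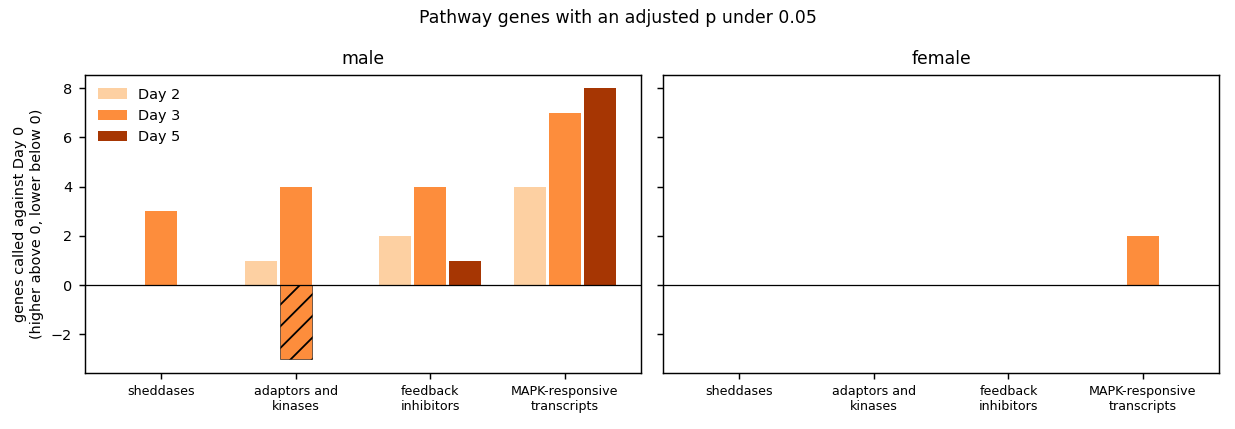
Number of genes with an adjusted p under 0.05 against the Day 0 mice of the same sex in 4 pathway lists, males left and females right. The lists are 7 sheddases and their partners (labelled sheddases), 22 adaptors and kinases, 18 feedback inhibitors and 16 MAPK-responsive transcripts. Bars above 0 are higher, hatched bars below 0 are lower. The MAPK-responsive list has 4, 7 and 8 genes in males at Day 2, Day 3 and Day 5 and 2 in females, both at Day 3. Its summed level was 639 CPM in female Day 0 mouse 4 and 188 to 237 CPM in the other Day 0 females.

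Tubule injury markers were looked at beside the family. Lcn2, which encodes NGAL, rose in Day 3 males (3.12 to 36.1 CPM, log2 fold change 3.53, adjusted p 0.0155), Day 5 males (to 54.3 CPM, 4.19, adjusted p 0.0185) and Day 3 females (3.96 to 84.3 CPM, 4.4, adjusted p 0.0465). Havcr1, which encodes KIM-1, averaged 1.11 and 2.52 CPM in Day 0 and Day 3 males (1.16, adjusted p 0.140) and 0.563 and 29.8 CPM in females (5.86, adjusted p 0.0465), and was lower in Day 3 males than in Day 3 females (-3.60, adjusted p 0.0248). Leaving out 1 mouse ended the Lcn2 call in 1 of 8 fits in Day 3 males (0.0505 at most), in 2 of 8 in Day 5 males (up to 0.0562) and in 6 of 8 in Day 3 females (up to 0.168), and the Havcr1 call in 6 of 8 in Day 3 females. At Day 3 Umod was also lower in males (-0.70, adjusted p 0.0393), and Ptprc, the leukocyte marker CD45, was higher in males (0.78, adjusted p 0.0192), the only one called of 9 leukocyte markers tested, whose median log2 difference was 0.04. Of these 3 differences between the sexes, leaving out 1 mouse kept that of Havcr1 in 4 of 8 fits, of Umod in 1 and of Ptprc in 6. Erythroid markers moved with day: their summed level was 434 to 2149 CPM in Day 0 males and 0.810 to 2.25 CPM at Day 3, with 5 of 5 lower in Day 3 mice of both sexes, and 3 of 5 adipocyte markers fell in Day 3 males, beside 13.1% of all genes lower in males and 4.28% in females. The summed podocyte level was 153 to 285 CPM in Day 0 males and 373 to 449 CPM at Day 3 (2 of 5 rose), and the summed endothelial level was 334 to 420 and 499 to 517 CPM (1 of 6 rose), beside 11.4% of genes higher. Between the sexes at Day 3, 5 of 6 endothelial and 3 of 10 proximal tubule markers were higher in males, beside 10.6% of genes. Lower in males were 6 of 8 collecting duct markers, 4 of 10 of the thick ascending limb and distal convoluted tubule, 4 of 5 of adipocytes and 3 of 6 of tubule injury, beside 10.7%. The part of cell makeup in the changes of the family was not tested.

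The genes with the profile most like 3 of the members were found over the 8 group means of log2 CPM, among 15044 protein-coding genes, by the root mean square difference after centring. Closest to Egf were Manbal (0.0967) and Trmt61a (0.0997), closest to Egfr were Tulp4 (0.0648) and Esrp2 (0.0667), and closest to Hbegf were Usp16 (0.0769) and Pnpla8 (0.0812). The median difference over all genes was 0.458, 0.447 and 0.459. The closest of 15044 genes lies below the median by construction, so whether these genes are unusually alike was not tested. Areg did not pass the filter and was not searched.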

How the data were processed

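RNA-seq was performed on total RNA from the kidneys of 32 mice (paired-end, Illumina HiSeq4000). Raw counts for each gene and FPKM values were deposited, and per the submitters' processing notes the authors used HTSeq and DESeq2, without versions. The submitters' processing notes name GRCm39, while gene coordinates in the deposited tables are those of GRCm38, the build given in the study's methods and used here. The aligner and the strand setting are not given in the sources used here. Totals were 16502107 to 35961325 counts per library, no pair of libraries held identical values, and a level under 3 counts was taken as not measurable.

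Counts were normalised by TMM and tested with edgeR 4.0.16 (quasi-likelihood, robust, filterByExpr) in R 4.3.3, each fit holding only the groups compared, with Benjamini-Hochberg adjustment over all genes tested. CPM used TMM factors over all 32 libraries, and log2 CPM a prior count of 2. The standard error was taken as the absolute log2 fold change over the square root of F. The 9 members and the lists were chosen with earlier results of these data known. Genes named were the 9 members, Erbb4 and the other ligands, up to 4 genes per pathway list called alike in both sexes at Day 2 or at Day 3, 7 markers and the 2 genes most alike in profile to each of 4 members. All others are said to be named after their values were seen. Alternatives were DESeq2 1.42.0, its size factors, limma 3.58.1 voom with sample quality weights, no filter, at least 10 counts in every library, 1 fit over all 8 groups, a replicate block, removal of mitochondrial genes, rescaled FPKM, and each mouse left out. Counts of pathway genes and changes of genes outside the family under these settings were added after seeing the data. The procedure was tested on simulated data.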

Additional observations from a re-analysis of the deposited data

Results flagged for a closer look

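Egfr in male Day 3 mouse 1 stood apart from the rest of its group, at 72.8 CPM against 60.4 to 62.4 CPM in the other 3 mice. It was the only one of 56 gene and group sets that passed Dixon's test at the 95% level, which chance passes in about 1 set in 20. The rise of Egfr in Day 3 males was called with and without this mouse.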

How the results depend on the processing

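Counts of members called against Day 0 moved by over 1.5 times under these settings. In males at Day 2 DESeq2 gave 1 and voom 2, beside 8.8 and 46.4% of all genes. At Day 3 the count was 1 with no filter, in the 8-group fit and without mitochondrial genes (8.62, 19.5 and 24.7%), and at Day 5 it was 3 with voom and 1 in the 8-group fit (54.8 and 31.1%). In females at Day 2 DESeq2 gave 1, voom 5 and the 8-group fit 3 (6.84, 50.0 and 21.8%). At Day 3 the size factors of DESeq2 gave 0, DESeq2 2, voom 6 and the 8-group fit 3, beside 2.53, 10.7, 47.8 and 23.4% of all genes, and at Day 5 voom gave 4 and the 8-group fit 1 (18.9 and 10.9%). Between the sexes voom gave 3 at Day 0 and 2 at Day 5 (25.2 and 29.7%), and the 8-group fit gave 0 at Day 3 (0.988%). For the interaction voom gave 2 at Day 3 and 3 at Day 5 (12 and 32.5%).

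With 1 mouse left out, the counts against Day 0 ran from 0 to 0, 1 to 3 and 0 to 1 in males and from 0 to 3, 0 to 5 and 0 to 1 in females at Day 2, Day 3 and Day 5. The shares of all genes called in these fits ran from 0.079 to 14.0, 4.18 to 38.6 and 5.38 to 26% in males and from 0.125 to 28.3, 0 to 39.1 and 0.0483 to 12.6% in females. Between the sexes they ran from 1 to 3 at Day 3 (11.1 to 34.6% of genes) and 0 to 1 at Day 5 (0 to 17%), for the interaction at Day 5 from 0 to 1 (0 to 6.74%), and in the other comparisons from 0 to 0.

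Among the changes given in the report, signs turned for Egfr in Day 5 males under voom (-0.0884), in the 8-group fit (-0.0443) and without mitochondrial genes (-0.0085), for Egf in Day 3 females under voom (-0.20), and for Umod in Day 3 males under voom (-0.37). With 1 mouse left out, changes of either sign were found for Hbegf in Day 2 males (-0.22 to 0.0808), Egfr in Day 5 males (-0.0856 to 0.066), Egf (-0.33 to 0.0325) and Erbb2 (-0.49 to 0.0562) in Day 2 females, Egf in Day 3 females (-0.32 to 0.39), Erbb3 in Day 5 females (-0.0038 to 0.57), Hbegf between the sexes at Day 3 (-0.0587 to 0.33) and Umod in Day 3 males (-0.13 to 0.52).

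With the replicate number as a block, 0 members were called at Day 3 in males (Egfr adjusted p 0.0569, Erbb3 0.102) and 0 in females (Tgfa 0.142), and Egf in Day 3 females turned to -0.0261. No comparison had every same-numbered pair correlated over 0.1, so by that rule the numbers were not taken as pairs. The nearest was male against female at Day 0, where same-numbered mice had a mean correlation of 0.281 (-0.0737 to 0.481) against -0.0809 for other pairs, 3 of 4 matched best with their own number, and the block took the calls over all genes from 72 to 210, a hint from the data and not from the design. The block called 0.566% of all genes in Day 3 males and 0% in Day 3 females. The cause of these moves was not tested.

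Over all settings other than leaving out a mouse, the 55 changes of members given in the report gave 385 values with the same direction and call, 38 newly called, 12 no longer called and 5 of the other sign. The 50 changes of members not given there turned sign in 9 of 400 values, none of them called. Areg and Ereg were too low to test.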
